A study of Mus musculus with 7 samples.

Results

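Immunoglobulin transcripts were measured in macrophages sorted from mouse gliomas, gene by gene, for the variable (V) and constant (C) genes of the heavy-chain locus IGH and the light-chain loci IGK (kappa) and IGL (lambda). The members are the genes that GENCODE mouse release 21 annotates as immunoglobulin V or C genes and that had at least 10 reads summed over the 7 libraries. They numbered 167 of 231 such entries, among 55385 gene entries in all. There were 156 V members (72 IGHV, 81 IGKV and 3 IGLV) of 218, and 11 C members of 13 (7 heavy-chain genes, Igkc and 3 lambda genes). Of the 64 entries left out, 23 had no read. Ighv1-31 and Igkv10-95 had 10 reads and were just inside the minimum, while Gm43218, Ighv1-56, Ighv1-61, Ighv5-15, Ighv6-4 and Igkv4-54 had 9 and were just outside it. Ighe, the IgE gene, and Iglc4 were also under the minimum.

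The macrophages came from intracranial tumours in C57BL/6 mice, each started with 100000 cells of QPP7, an isogenic mouse glioma line. In 3 libraries the injected tumour cells carried a hairpin that knocks down Chi3l1 (shChi3l1), and in 4 they carried a control hairpin (shSC). Since only the injected cells carried a hairpin, the comparison is of macrophages from tumours of either kind. The ages and sexes of the mice, and the antibodies used for the sort, are among the details not given in the sources used here. Assigned reads ranged from 19169129 to 36502664 per library. Chi3l1, annotated as Chil1 (ENSMUSG00000064246.10, mm10 chr1:134182176-134190181), had 28, 31 and 7 reads in shChi3l1 1, 2 and 3 and 23, 28, 24 and 18 in shSC 1 to 4. These are macrophage reads and do not check the knockdown in the tumour cells. The sample titles carry a different number for each library but do not say what it stands for. Nothing else in the labels ties each library to its own mouse, so p-values here cover only library-to-library spread, which may be technical in part.

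An antibody is built from heavy chains paired with either kappa or lambda light chains. Each B-lineage cell assembles 1 V segment per chain by DNA recombination, so a V segment's transcripts mark the cells that chose it, while the heavy C gene in use sets the isotype (IgM, IgD, IgG, IgE or IgA). Plasma cells, the end stage of the lineage, carry very large amounts of these transcripts, and macrophages are known for binding antibody through Fc receptors rather than for making it.

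The end of the V segment that recombination joins is shown first, in its germline form, because the most abundant segment differed from library to library. Each line gives the last bases of the V exon of a segment that ranked first in at least 1 library, 5′ to 3′ on the coding strand, from the GENCODE transcripts with mm10 coordinates and not from the reads. Capitals mark the conserved cysteine codon just before the third complementarity-determining region, and the bases after it are the V segment's part of that region, which recombination trims and joins at its end. The first 7 are IGHV segments and the other 5 are IGKV segments.
Ighv4-1, chr12:113948282-113948319, minus strand: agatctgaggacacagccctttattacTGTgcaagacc
Ighv6-3, chr12:114391712-114391746, minus strand: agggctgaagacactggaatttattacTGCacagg
Ighv1-54, chr12:115193675-115193710, minus strand: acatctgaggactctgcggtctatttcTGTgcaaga
Ighv1-26, chr12:114788372-114788407, minus strand: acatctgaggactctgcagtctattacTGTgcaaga
Ighv1-82, chr12:115952538-115952573, minus strand: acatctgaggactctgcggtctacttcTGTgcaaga
Ighv14-4, chr12:114176438-114176473, minus strand: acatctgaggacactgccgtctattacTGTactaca
Ighv1-64, chr12:115507545-115507580, minus strand: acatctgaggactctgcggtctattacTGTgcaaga
Igkv16-104, chr6:68426019-68426072, plus strand: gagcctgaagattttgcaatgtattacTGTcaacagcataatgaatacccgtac
Igkv3-2, chr6:70699015-70699067, plus strand: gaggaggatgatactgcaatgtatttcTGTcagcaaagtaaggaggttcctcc
Igkv13-85, chr6:68930269-68930321, minus strand: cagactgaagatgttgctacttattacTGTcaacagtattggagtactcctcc
Igkv14-111, chr6:68256817-68256869, plus strand: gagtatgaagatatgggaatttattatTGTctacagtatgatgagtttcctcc
Igkv9-124, chr6:67942074-67942126, minus strand: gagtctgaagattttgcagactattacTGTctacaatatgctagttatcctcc

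Family members are close copies of each other. The V exon of a V member had a median identity of 94.4% to its closest other V member, and 71 of 156 had one at 95% or more, though no 2 were identical. How reads that fit several segments were counted is not given in the sources used here, so the values of single segments are uncertain to that extent.

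Immunoglobulin transcripts were present in every library, at levels that spread far more between libraries of 1 hairpin than between the hairpins. Members held 29163, 8087 and 381784 reads in shChi3l1 1, 2 and 3. In shSC 1 to 4 they held 7848, 24545, 91510 and 5648 reads. As shares of assigned reads these were 0.0997%, 0.0222% and 1.65% in shChi3l1 and 0.0253%, 0.0753%, 0.329% and 0.0295% in shSC. One library of each hairpin, shChi3l1 3 and shSC 3, stood above the rest of its group, and the lowest values of the groups lay close together. In CPM (counts per 1000000 assigned reads, on TMM-scaled totals) the summed level was 1241, 240.3 and 15521 in shChi3l1 and 278.3, 692.9, 3122 and 242.9 in shSC. The highest library was 64.6-fold above the lowest, and both of these were shChi3l1 libraries. ShChi3l1 3 alone held 69.6% of all member reads.

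The mean log2 level was 10.7 ± 3.03 (SD, n = 3) for shChi3l1 libraries and 9.27 ± 1.70 (SD, n = 4) for shSC libraries. The difference of 1.43 was smaller than the spread between libraries (exact two-sided permutation p = 0.514, 0.971 after Benjamini-Hochberg adjustment over 10 library measures). Without shChi3l1 3 it was -0.18 (exact p = 0.933), so its direction rested on that library. With 3 libraries against 4 the smallest p that this test can give is 0.0571. In such bulk samples fewer immunoglobulin-bearing cells and less immunoglobulin RNA per cell cannot be told apart.

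**Figure D1:**
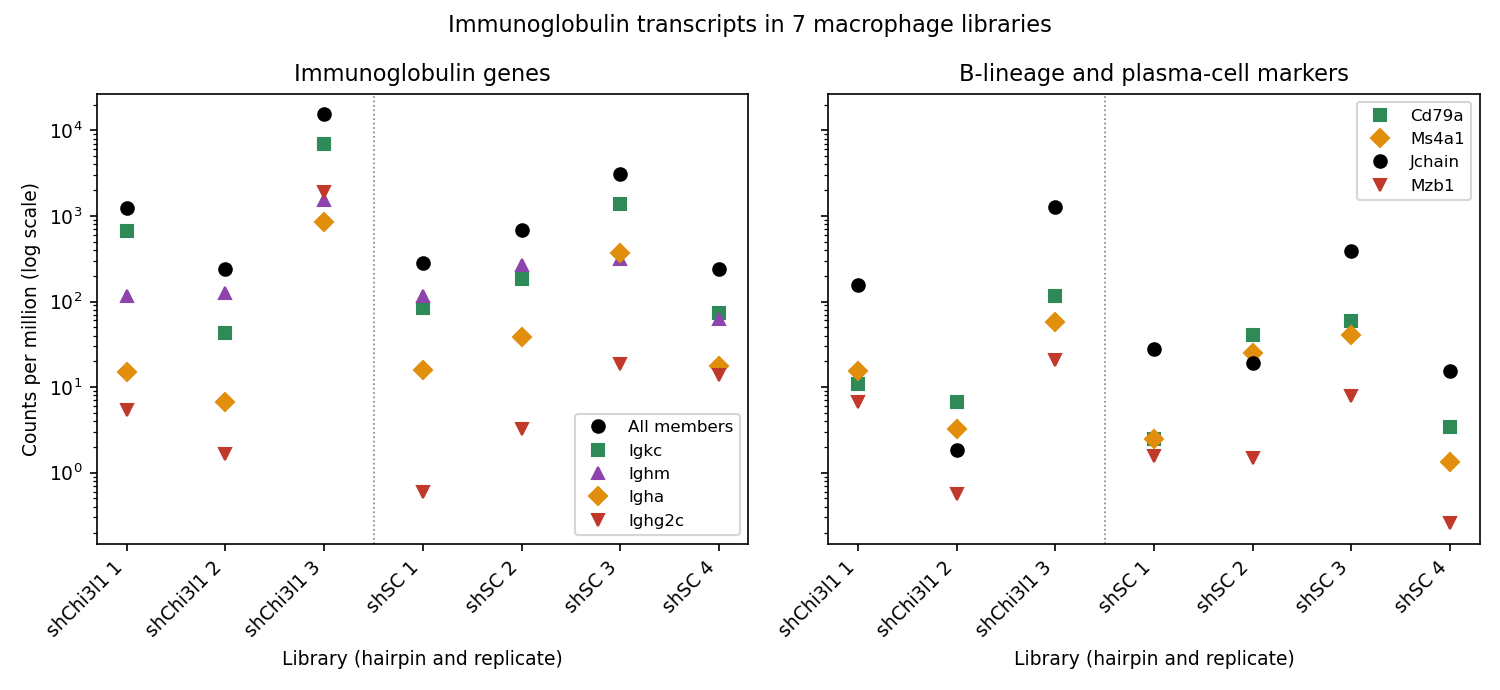
Level in CPM (log axis) of all members together and of 4 constant genes (left), and of 4 B-lineage and plasma-cell markers (right), with 1 point per gene and library. ShChi3l1 3 and shSC 3 are the highest libraries of their hairpins in both panels, at 15521 and 3122 CPM for all members.

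The sorted cells carried macrophage genes throughout. The 10 macrophage markers summed to between 35413 and 54836 CPM in shChi3l1 and between 27139 and 37250 in shSC. B-lineage markers were far lower but present. Cd79a, a signalling chain of the B-cell receptor, had 10.8, 6.74 and 115.2 CPM in shChi3l1 and 2.45, 41.2, 58.9 and 3.44 in shSC. Ms4a1, which encodes CD20, had 15.5, 3.24 and 57.3 CPM in shChi3l1 and 2.45, 25.2, 40.6 and 1.33 in shSC. For both genes shChi3l1 3 was highest and shSC 3 second. Cd22, of the same list, was instead highest in shChi3l1 2, at 82.2 CPM. The whole list of 15 B-lineage genes summed to between 240.8 and 557.2 CPM in shChi3l1 and between 252.7 and 483.7 in shSC, most of it in every library but shChi3l1 3 from Cd72, which myeloid cells also express. Of its 13 tested genes 12 had a positive and 1 a negative log2 fold change, and none passed the adjusted threshold. Pax5, the factor that defines the B lineage, had no read in shChi3l1 1 and 2 and shSC 1 and 4, and at most 0.751 CPM in the others.

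Jchain, which encodes the joining chain of polymeric IgM and IgA and is abundant in plasma cells, followed the same order at the top. It had 155.7, 1.84 and 1265 CPM in shChi3l1 and 27.7, 19.1, 390.1 and 15.5 in shSC. Mzb1, a chaperone gene of antibody-secreting cells, had 6.64, 0.565 and 20.6 CPM in shChi3l1 and 1.56, 1.496, 7.92 and 0.258 in shSC. The 2 highest libraries were again shChi3l1 3 and shSC 3. Not all genes of the plasma-cell list had this order. Prdm1 (100.6 CPM), Sdc1 (51.8 CPM) and Edem1 were highest in shChi3l1 2, the library poorest in immunoglobulin. Creld2 was highest in shSC 2, Fkbp11 in shSC 4, and Irf4 and Derl3 in shSC 3. The rest of the list was highest in shChi3l1 3. The 14 plasma-cell genes, of which several such as Xbp1 are expressed in many cell types, summed to between 709.5 and 2152 CPM in shChi3l1 and between 605.4 and 1080 in shSC. Of 13 tested, 11 had a positive and 2 a negative log2 fold change, and none passed the adjusted threshold. Member CPM per CPM of the B-lineage list was 5.15, 0.970 and 27.9 in shChi3l1 and 0.754, 1.73, 6.45 and 0.961 in shSC. Because of the part of Cd72 in that sum, the ratio says little about B cells, and Cd79a and Ms4a1 alone spread widely between libraries too. The part that B-lineage and plasma cells in the sorted fraction have in the member values was not tested.

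Genes of early B-cell development were close to absent. Rag1 and Rag2, the recombination enzymes, and Vpreb2 had no read in any library, and the 6 genes of that list summed to at most 0.596 CPM. Of the 5 tested genes of the class-switching list, 3 had a positive and 2 a negative log2 fold change, with none called. Among 11 immunoglobulin receptor genes, Pigr and Fcamr, both receptors for polymeric immunoglobulin, had no read, and the list summed to between 4888 and 8398 CPM in shChi3l1 and between 4248 and 8721 in shSC. The receptor sum was highest in shChi3l1 1 and shSC 1, other libraries than those with the most immunoglobulin.

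The heavy-chain isotypes differed between libraries, and the 2 libraries richest in immunoglobulin were the least dominated by IgM. Shares are given per kb of exon, so that genes of unequal length can be compared within a library. Ighm, the IgM gene (ENSMUSG00000076617.9, chr12:113418558-113422730), had 2733, 4228 and 37530 reads in shChi3l1 and 3231, 9484, 9302 and 1462 in shSC. Its share of heavy-chain C reads was 82.8%, 83.5% and 31.2% in shChi3l1 and 88.5%, 84.8%, 47.0% and 61.8% in shSC. Per kb, Ighm thus held the largest share in every library except shChi3l1 3. These shares count C reads whether or not a V segment was joined to them. IGHV reads per 100 heavy-chain C reads ran from 3.91 in shSC 1 to 26.1 in shChi3l1 3. How many Ighm reads came from joined heavy chains was not tested. By reads not divided by length, Igha led in shSC 3, with 46.7% against 39.8% for Ighm. The group means were 65.9% ± 30.004 (SD, n = 3) and 70.5% ± 19.6 (SD, n = 4), and their difference had p = 0.8 in the exact permutation test. Without shChi3l1 3 the difference turned from -4.69 to 12.6 percentage points. The switched isotypes (all IgG and IgA genes) together held 15.99%, 14.2% and 68.5% in shChi3l1 and 10.4%, 12.6%, 50.5% and 36.6% in shSC. Their means of 32.9% ± 30.8 (SD, n = 3) and 27.5% ± 19.4 (SD, n = 4) differed by less than the spread (exact p = 0.743), and without shChi3l1 3 the difference turned from 5.37 to -12.4 points.

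The switched reads were of different isotypes in the 2 rich libraries. Ighg2c, the IgG2c gene that C57BL/6 mice carry (ENSMUSG00000076612.8, chr12:113285325-113288932), had 128, 55 and 46582 reads in shChi3l1 and 17, 115, 544 and 318 in shSC. Nearly all of its reads were thus in shChi3l1 3, where it held 55.1% of the heavy-chain C share, against 5.52% and 1.55% in shChi3l1 1 and 2. In shSC its share was 0.663%, 1.46%, 3.91% and 19.1%. Igha, the IgA gene (ENSMUSG00000095079.6, chr12:113254830-113260236), had 349, 223 and 20715 reads in shChi3l1 and 447, 1365, 10922 and 406 in shSC. Its share was 7.48%, 3.11% and 12.2% in shChi3l1 and 8.66%, 8.63%, 39.0% and 12.1% in shSC, so that IgA led the switched isotypes of shSC 3 and IgG2c those of shChi3l1 3.

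The other heavy-chain C genes were minor in most libraries. Ighg2b, the IgG2b gene, had 55, 219 and 371 reads in shChi3l1 and 45, 320, 1945 and 161 in shSC, with a largest share of 6.93% in shSC 3. Ighg3, the IgG3 gene, had 17, 429 and 1551 reads in shChi3l1 and 9, 73, 136 and 5 in shSC. Its share was highest in shChi3l1 2, at 6.36%, and below 1% in the other libraries, and that library was the poorest in immunoglobulin. Ighg1, the IgG1 gene, had 65, 10 and 0 reads in shChi3l1 and 0, 0, 35 and 12 in shSC, the fewest of any C member. Ighd, the IgD gene of naive B cells, had 39, 116 and 395 reads in shChi3l1 and 40, 292, 482 and 40 in shSC, and its share stayed between 0.326% and 2.59%. Ighg2b and Ighg2c were 88.2% identical over 1212 aligned bases, so some reads could fit both.

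**Figure D2:**
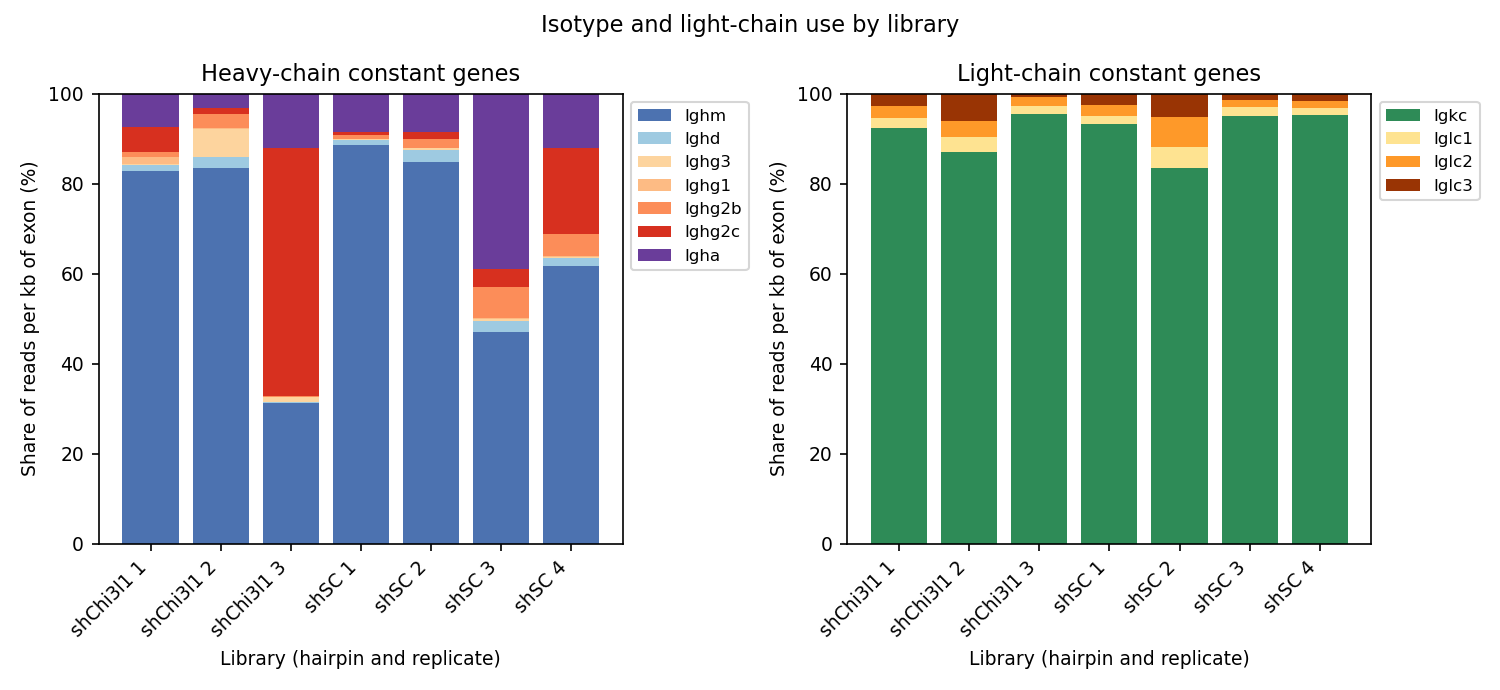
Stacked shares of reads per kb of exon among heavy-chain (left) and light-chain (right) constant genes, with 1 bar per library adding to 100%. Ighm holds most of each bar except in shChi3l1 3, where Ighg2c holds 55.1%, and shSC 3, where Igha holds 39.0%, and Igkc holds at least 83.5% of the light-chain share everywhere.

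Kappa was the main light chain in all 7 libraries. Igkc (ENSMUSG00000076609.2, chr6:70726435-70726966) had 15470, 1438 and 170242 reads in shChi3l1 and 2353, 6575, 40673 and 1689 in shSC. Its share of light-chain C reads per kb was 92.4%, 87.0% and 95.5% in shChi3l1 and 93.2%, 83.5%, 95.1% and 95.1% in shSC. The means of 91.6% ± 4.34 (SD, n = 3) and 91.7% ± 5.54 (SD, n = 4) were nearly equal (exact two-sided permutation p = 0.971). The V reads gave kappa shares of the same order, from 92.5% to 96.2% in shChi3l1 and from 92.0% to 96.3% in shSC. ShSC 2 had the lowest kappa share by either measure.

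All 3 lambda C members were found in every library. Iglc2 had 496, 67 and 3785 reads in shChi3l1 and 68, 611, 701 and 35 in shSC. Iglc1 had 305, 47 and 2740 reads in shChi3l1 and 41, 300, 707 and 24 in shSC. Iglc3 had 405, 87 and 1256 reads in shChi3l1 and 55, 351, 563 and 24 in shSC. The 3 genes thus shared the lambda reads in each library, and by reads Iglc3 was ahead only in shChi3l1 2. Per kb it was also ahead in shChi3l1 1, at 2.85% of the light-chain share, and in shSC 1, at 2.56%. Iglc2 and Iglc3 were 95.3% identical over 450 bases, so the split of reads between them is uncertain. Among lambda V reads, Iglv1 led in every library with 46.8% to 87.2%. Iglv2 had 13, 3 and 89 reads in shChi3l1, or 3.92%, 5.88% and 1.73% of lambda V reads. In shSC it had 27, 81, 202 and 3 reads, or 31.8%, 26.9%, 26.4% and 6.38%. The Iglv2 share was thus lower in each shChi3l1 library than in each shSC library. The gap between shChi3l1 2 and shSC 4 was small, and both of these shares rested on 3 reads. Iglv1 and Iglv2 were 97.0% identical. The Iglv2 share was singled out after its values were seen and was not tested. How many other V segments separate the hairpins by share was not counted.

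The balance of V and C reads differed between loci. For every 100 reads of Igkc there were 54.1, 50.8 and 37.3 IGKV reads in shChi3l1 and 55.6, 52.3, 48.4 and 62.2 in shSC. For every 100 heavy-chain C reads there were 11.8, 7.33 and 26.1 IGHV reads in shChi3l1 and 3.91, 11.3, 21.7 and 15.6 in shSC. The heavy-chain ratio was highest in the 2 libraries richest in immunoglobulin and lowest in shSC 1, where 3789 heavy-chain C reads stood beside 148 IGHV reads. The kappa ratio was lowest in shChi3l1 3. These ratios compare reads, not molecules, and the exon lengths of V and C genes differ.

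V reads were concentrated in a few segments, and in IGHV each library had a different leading segment. The leading IGHV segment held 18.5% of IGHV reads in shChi3l1 1 (Ighv4-1, 74 reads, 95% Wilson interval 15.0% to 22.7%), 58.9% in shChi3l1 2 (Ighv6-3, 228 reads, 53.9% to 63.7%) and 49.7% in shChi3l1 3 (Ighv1-54, 13875 reads, 49.1% to 50.3%). In shSC 1 it was Ighv1-26 with 50 reads, 33.8% of IGHV reads (26.7% to 41.7%). In shSC 2 it was Ighv1-82 with 414 reads, 31.4% (29.0% to 34.0%). ShSC 3 was led by Ighv14-4 with 1844 reads, 36.4% (35.1% to 37.8%), and shSC 4 by Ighv1-64 with 62 reads, 16.5% (13.1% to 20.6%). The 7 leaders are the IGHV sequences printed above. PCR reads without molecular identifiers are not independent molecules, so the intervals cover counting error only.

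Leaders of 1 library were often almost missing from the others. Ighv1-54 had 0, 1 and 13875 reads in shChi3l1 and 0, 2, 17 and 2 in shSC. Ighv14-4 had 0, 2 and 19 reads in shChi3l1 and 0, 3, 1844 and 2 in shSC. Ighv4-1 had 74, 2 and 19 reads in shChi3l1 and 0, 2, 1 and 0 in shSC. Other leaders were shared: Ighv1-82, first in shSC 2, also held 16.2% of IGHV reads in shSC 1 and 10.7% in shSC 4, against at most 0.501% in shChi3l1 libraries and 0.296% in shSC 3. Ighv6-3, first in shChi3l1 2, was second in shSC 4 at 14.7%. Ighv1-26, first in shSC 1, was also among the 3 most abundant in shChi3l1 1, at 14.0%.

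Kappa leaders recurred more, with 5 segments leading the 7 libraries. In shChi3l1 they were Igkv16-104 (2017 reads, 24.1% of IGKV reads, 23.2% to 25.0%), Igkv3-2 (221 reads, 30.3%, 27.1% to 33.7%) and Igkv13-85 (16734 reads, 26.3%, 26.0% to 26.7%). Igkv14-111 led shSC 1 with 260 reads (19.9%, 17.8% to 22.1%) and shSC 2 with 985 reads (28.6%, 27.1% to 30.2%). Igkv9-124 led shSC 3 with 8914 reads (45.3%, 44.6% to 46.0%), and Igkv3-2 led shSC 4 with 139 reads (13.2%, 11.3% to 15.4%). Igkv3-2 thus led 1 library of each hairpin.

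Kappa segments ranged from those used in 1 library to those used widely. Igkv13-85 had 4, 1 and 16734 reads in shChi3l1 and 3, 16, 3 and 0 in shSC. Igkv9-124 had 412, 0 and 19 reads in shChi3l1 and 0, 22, 8914 and 1 in shSC. Nearly all reads of both were in 1 library. Igkv19-93 had 479, 16 and 6640 reads in shChi3l1 and 4, 217, 2135 and 69 in shSC, which is 5.72%, 2.19% and 10.4% of IGKV reads and 0.306%, 6.31%, 10.9% and 6.57%. It passed 5% of IGKV reads in 5 libraries, more than any other IGHV or IGKV member.

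**Figure D3:**
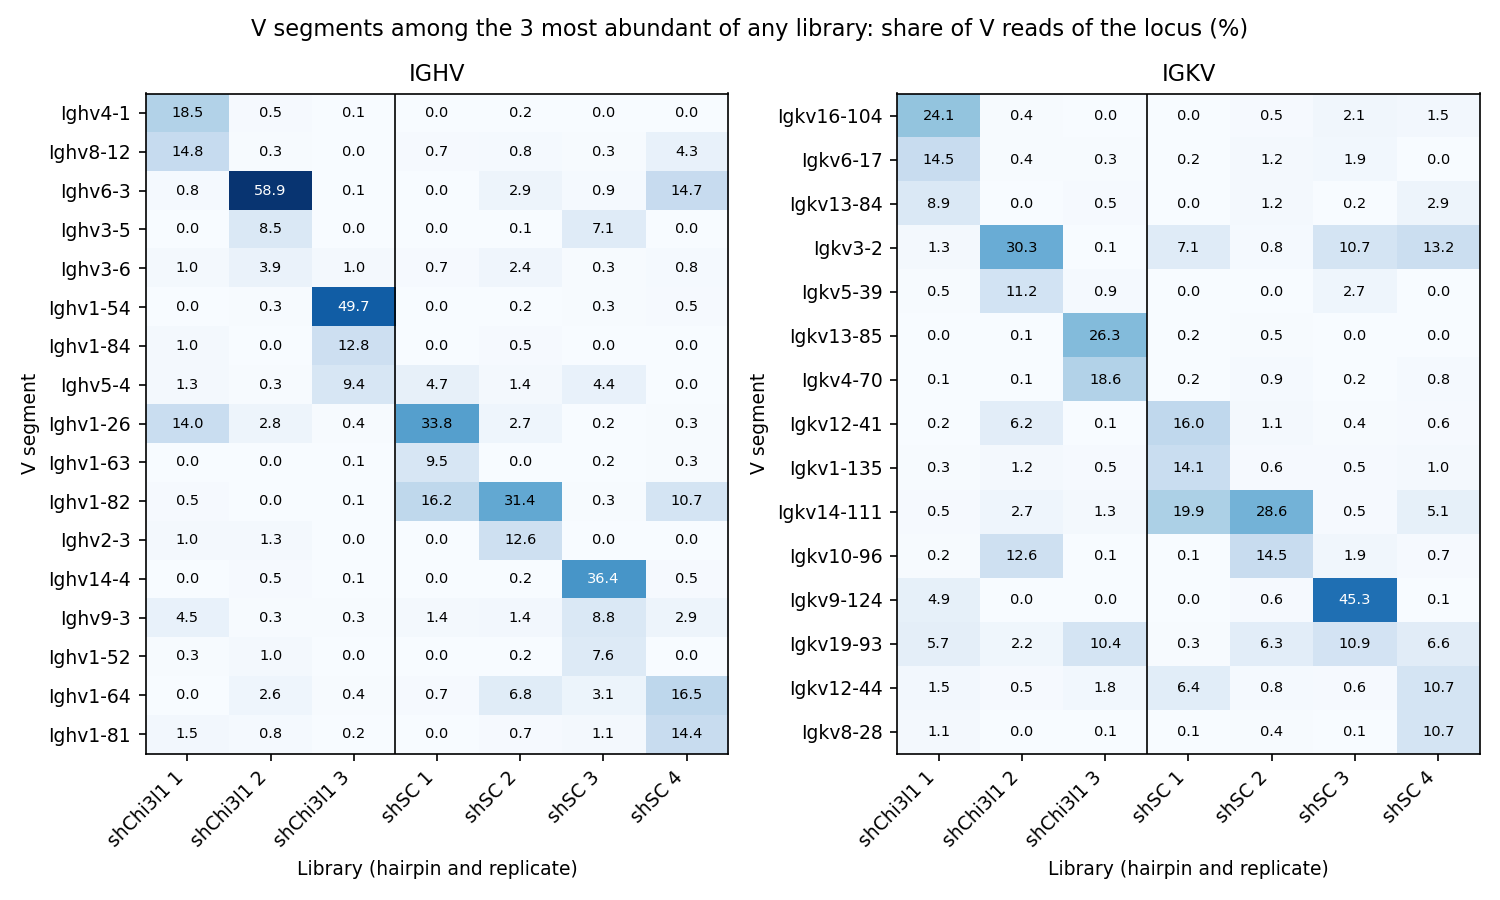
Share (%) of the IGHV reads (left) or IGKV reads (right) of each library held by each segment that ranked among the 3 most abundant in any library, with the value printed in each cell and a line between the hairpins. Most rows have 1 dark cell, such as Ighv6-3 at 58.9% in shChi3l1 2 and Igkv9-124 at 45.3% in shSC 3.

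Among the V members abundant in some library this pattern was common. Of the 156 V members, 35 ranked among the 3 most abundant of their locus in some library, 17 IGHV, 15 IGKV and all 3 IGLV. Among these, 4 IGHV and 4 IGKV segments did so in 2 or more libraries. Of 59 members that passed 5% of their locus in any library, 44 did so in 1 library only. For 120 of 156 members over 50% of their CPM summed over the libraries came from 1 library, and for 37 over 90% did. ShChi3l1 3 alone held 72.7% of the summed CPM of all members. A segment of equal share in every library could thus also pass 50%, and that count does not by itself show different V use. The library with the highest CPM was shChi3l1 3 for 81 members and shSC 3 for 34. Only 30 members had reads in all 7 libraries, 6 IGHV, 21 IGKV and 3 IGLV.

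Family use varied in the same way. IGHV1, the largest heavy-chain family with 37 members, held 38.6%, 16.3% and 83.6% of IGHV reads in shChi3l1 and 84.5%, 61.5%, 32.8% and 67.7% in shSC. IGKV4, the largest kappa family with 24 members, held 10.3%, 8.77% and 39.8% of IGKV reads in shChi3l1 and 3.67%, 5.99%, 11.3% and 7.05% in shSC. Both families had ranges that overlapped between the hairpins. Kappa segments lie in both orientations, and those on the plus strand, 29 of 81 members, held 57.96%, 48.1% and 10.7% of IGKV reads in shChi3l1 and 59.0%, 49.7%, 22.6% and 36.5% in shSC. The share was lowest in the 2 libraries richest in immunoglobulin.

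The number of segments behind the reads was not shown to differ between the hairpins. The effective number, the inverse Simpson index of segment shares, equals the count of segments if all were equally used. For IGHV it was 10.96, 2.78 and 3.58 in shChi3l1 and 6.02, 7.69, 6.13 and 10.0 in shSC (means 5.77 ± 4.51, n = 3, and 7.47 ± 1.87, n = 4, exact two-sided permutation p = 0.571). For IGKV it was 8.94, 7.49 and 7.54 in shChi3l1 and 8.60, 8.45, 4.23 and 14.1 in shSC (means 7.99 ± 0.824, n = 3, and 8.85 ± 4.06, n = 4, exact p = 0.743). Values of the groups overlapped in both loci. The share of the leading segment had means of 42.4% ± 21.2 (SD, n = 3) and 29.5% ± 8.91 (SD, n = 4) for IGHV (exact p = 0.286). For IGKV they were 26.9% ± 3.13 (SD, n = 3) and 26.8% ± 13.9 (SD, n = 4), with an exact p of 0.971.

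Between 1 and 4 segments were enough to reach 50% of the IGHV reads of a library, and between 2 and 6 for the IGKV reads. A tail of rarely used segments stood beside them: 90% of reads took 10 to 27 segments in either locus. At an equal depth of 148 IGHV reads, the number of segments expected with at least 1 read was 31.7, 26.0 and 19.5 in shChi3l1 and 22.0, 34.4, 26.5 and 22.9 in shSC (exact two-sided permutation p = 0.914). At 730 IGKV reads it was 40.2, 47.0 and 40.0 in shChi3l1 and 36.2, 55.5, 43.9 and 43.5 in shSC (exact p = 0.743). ShSC 2 had the most segments in both loci. Reads of a segment can come from many cells or from a single cell with much RNA, so these numbers do not count clones.

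**Figure D4:**
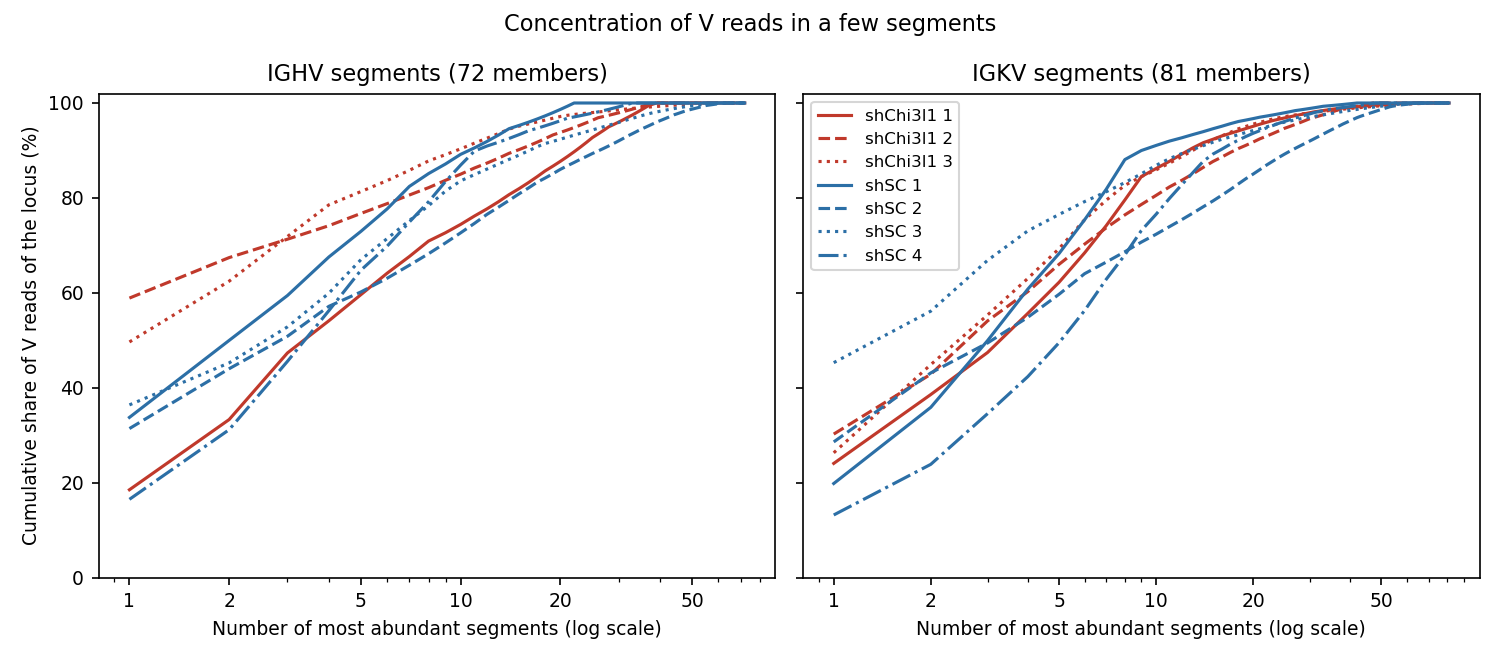
Cumulative share of V reads against the number of most abundant segments (log axis) for IGHV (left) and IGKV (right), 1 line per library, red for shChi3l1 and blue for shSC. Lines of both hairpins cross, starting between 16.5% and 58.9% for IGHV and between 13.2% and 45.3% for IGKV.

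V use overlapped to a like extent within and between hairpins. Overlap was taken as the sum over segments of the smaller of both shares, which is 100% for identical use. For IGHV it ranged from 8.16% to 35.2% with a median of 18.0% over the 9 pairs within a hairpin, and from 10.6% to 26.4% with a median of 18.5% over the 12 pairs between hairpins. For IGKV it was 13.6% to 37.3% (median 24.7%) within and 9.03% to 35.6% (median 26.0%) between hairpins. Pairs share libraries, so these are descriptions without a test. No pair of libraries had more than 2 of their 5 leading segments of a locus in common.

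Few segments were found under 1 hairpin only. Of 167 members, 161 had reads under both hairpins, 2 only in shChi3l1 and 4 only in shSC. A member needed 10 reads in all, so a member at 0 under 1 hairpin had at least 10 under the other by construction. In 3 of the 6 the reads came from a single library: Igkv4-81 with 41 reads in shChi3l1 3, Ighv3-4 with 66 in shSC 3 and Igkv12-38 with 25 in shSC 4. Ighv5-2 had 0, 4, 7 and 1 reads in shSC 1 to 4, and Ighv8-2 had 0, 2, 10 and 0. The remaining member, Igkv4-58, was the only 1 of the 6 with reads in every library of its hairpin.

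Igkv4-58 (ENSMUSG00000095633.2, chr6:69500254-69500786, minus strand) had 60, 42 and 35 reads in shChi3l1 1, 2 and 3 and none in any shSC library. Its level was 2.55, 1.25 and 1.42 CPM. With reads in every shChi3l1 library and none in shSC, the groups could not overlap. The pooled shChi3l1 level was 64.9-fold above a floor of 3 counts over all of shSC, which is a limit of counting. Its reads did not follow the amount of immunoglobulin: they were 0.717%, 5.75% and 0.0551% of IGKV reads, the largest share being in the library with the fewest. The count of 0 allows a share of up to 0.229%, 0.0872%, 0.0153% and 0.286% of IGKV reads in shSC 1 to 4. For shSC 1, 2 and 4 these limits lie above the share measured in shChi3l1 3. Igkv4-58 passed the filter on low counts only through shChi3l1 and was singled out for this pattern of reads. The lack of overlap, the fold above the floor and the p-values are therefore given as a description and support nothing. The edgeR quasi-likelihood test gave a log2 fold change of 8.62 (SE 1.12), a value that depends on the prior count, with an unadjusted p of 0.000182 and 0.9998 as the adjusted p. The adjusted p ranged from 0.083 to 1 over the other edgeR and voom settings, and DESeq2's Wald test gave 2.6e-05.

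Igkv4-58 has close copies, and how reads that fit several of them were counted is not given in the sources used here. Its V exon was 96.1% identical to Igkv4-51 and 92.2% to Igkv4-81 over 309 bases. The lines below give the last 180 bases of each V exon on the coding strand, with capitals in the copies marking bases that differ from Igkv4-58, so that the span of a read can be set against the differences.
Igkv4-58, chr6:69500254-69500433, minus strand: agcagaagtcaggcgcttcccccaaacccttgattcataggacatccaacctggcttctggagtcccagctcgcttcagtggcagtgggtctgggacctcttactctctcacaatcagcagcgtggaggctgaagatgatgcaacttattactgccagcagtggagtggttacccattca
Igkv4-51, chr6:69681406-69681585, minus strand: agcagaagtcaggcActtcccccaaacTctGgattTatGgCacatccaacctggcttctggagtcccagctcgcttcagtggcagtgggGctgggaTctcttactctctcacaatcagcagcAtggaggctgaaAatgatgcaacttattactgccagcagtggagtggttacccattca
Igkv4-81, chr6:68990758-68990937, minus strand: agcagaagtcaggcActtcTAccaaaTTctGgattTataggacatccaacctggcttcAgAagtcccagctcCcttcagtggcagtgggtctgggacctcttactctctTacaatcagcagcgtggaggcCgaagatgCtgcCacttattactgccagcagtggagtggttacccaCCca

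Over these bases Igkv4-51 differed from Igkv4-58 at 10 positions and Igkv4-81 at 16. Of 260 stretches of 50 bases in the Igkv4-58 V exon, some also occurred in 10 other V segments, at most 32 in any of them. Igkv4-51 had 0, 0 and 3 reads in shChi3l1 and 0, 0, 20 and 1 in shSC, nearly all of them in shSC 3. Igkv4-59, 90.1% identical, had 4, 5 and 3983 reads in shChi3l1 and 3, 17, 679 and 0 in shSC.

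**Figure D5:**
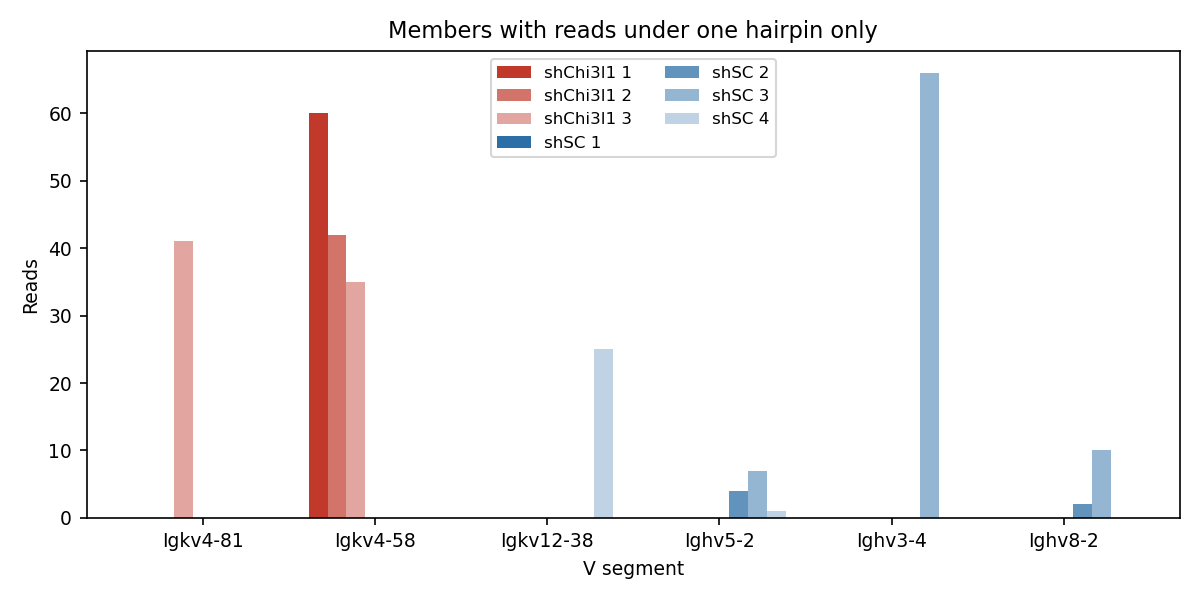
Reads per library of the 6 members found under 1 hairpin only, red shades for shChi3l1 and blue shades for shSC, with axis from 0. Igkv4-58 has reads in all 3 shChi3l1 libraries (60, 42 and 35), while Igkv4-81, Igkv12-38 and Ighv3-4 each have reads in 1 library.

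Gene by gene, no member passed the threshold between the hairpins. Of the 167 members, 81 (70 V and 11 C) passed the filter on low counts and 86 did not, and edgeR's quasi-likelihood test called 0 of the 81 at an adjusted p under 0.05. The background was 0% of the 15448 genes tested, with a smallest adjusted p of 0.9998. At an unadjusted p under 0.05, 18 members were higher in shChi3l1, where 0.906% of all tested genes were, and 0 were lower, where 0.576% were. The groups did not overlap for 1 tested member that was higher, Igkv4-58, with 1.24% of all tested genes in that class, and for 0 that were lower, with 1.25%. Among the tested members 62 had a positive and 19 a negative log2 fold change, with a median of 1.55 beside 0.07 for all tested genes. A member could pass the filter through the libraries where it was high, so these counts describe the tested members and give no support for a difference.

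Many of these values rested on shChi3l1 3. In 14 of the 18 members shChi3l1 3 was the highest of the 7 libraries, and in the other 4 shChi3l1 1 was. Without shChi3l1 3 the median over tested members was -1.17, and at an unadjusted p under 0.05 there were 4 members higher and 7 lower. Of the 18, 5 stayed at that level, 4 of them higher (Igkv4-58, Igkv4-68, Igkv8-21 and Igkv13-84) and Ighv1-53 lower. Under the replicate block, which pairs libraries of the same number and leaves out shSC 4, 2 members had an unadjusted p under 0.05 and the median was 0.66. The share of all tested genes at that p was not worked out for these settings, so the counts have no background beside them. Dispersion was 1.62 in the median over tested members, against 0.276 over all tested genes.

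The C members illustrate the spread. Ighg2c had the largest log2 fold change among them, 6.13 (SE 2.13), and Ighg3 followed at 3.81 (SE 1.35). Without shChi3l1 3 these were -1.36 and 1.90. Igkc was at 2.55 (SE 1.47), Ighm at 1.63 (SE 0.93) and Igha at 1.37 (SE 1.59). Ighd was at 0.02 (SE 0.98), Ighg1 at 1.25 (SE 1.72) and Ighg2b at -1.39 (SE 1.13), the only C member with a lower fitted level in shChi3l1. The lambda genes Iglc1, Iglc2 and Iglc3 were at 2.25 (SE 1.35), 2.39 (SE 1.28) and 1.55 (SE 1.08). None of the 11 passed the adjusted threshold.

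Among V members the smallest unadjusted p on the higher side, after Igkv4-58, belonged to Igkv4-70, Igkv8-21, Igkv10-94 and Igkv4-91. Igkv4-70 had 0.468, 0.0297 and 479.9 CPM in shChi3l1 and 0.0709, 0.903, 1.54 and 0.344 in shSC, so that shChi3l1 1 lay within the shSC range and shChi3l1 2 below it. Igkv8-21 had 6.04, 0.743 and 0.447 CPM in shChi3l1 and 0.0355, 0.0565, 0.478 and 0 in shSC, which left shChi3l1 1 and 2 above every shSC library and shChi3l1 3 just inside their range. On the lower side they were Ighv1-82 at -2.97 (SE 1.57), Igkv3-2 at -2.23 (SE 1.33), Ighv1-59, Igkv12-41 and Igkv9-124 at -3.65 (SE 2.85). Igkv9-124 had 17.5, 0 and 0.772 CPM in shChi3l1 and 0, 0.621, 304.1 and 0.043 in shSC, again with nearly all of the level in 1 library.

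Markers of other cells did not all follow the immunoglobulin level. T-cell markers summed to 251.0, 71.1 and 282.3 CPM in shChi3l1 and 50.1, 272.5, 402.0 and 37.2 in shSC. The 4 libraries with the highest T-cell sums were also the 4 highest in Cd79a and in summed immunoglobulin level, though in another order. Endothelial and pericyte markers summed to 19.8, 48.3 and 94.2 CPM in shChi3l1 and 23.0, 73.8, 45.9 and 41.7 in shSC. Tumour and glial markers were lowest in shChi3l1 3 at 11.2 CPM and highest in shSC 4 at 277.2. Plasmacytoid dendritic-cell markers ranged from 642.0 to 878.2 CPM in shChi3l1 and from 326.7 to 672.5 in shSC, and neutrophil markers from 3.98 to 72.1 and from 3.55 to 30.8. Most of the plasmacytoid sum was Bst2, with 840.7 CPM in shChi3l1 1 and 264.0 in shSC 4. Siglech, of the same list, had 4.68, 34.1 and 152.5 CPM in shChi3l1 and 4.89, 9.77, 5.87 and 1.42 in shSC. Siglech alone of this list was highest in shChi3l1 3, the library richest in immunoglobulin. Bst2 was highest in shChi3l1 1, Tcf4 in shSC 4, Ccr9 and Klk1 in shSC 2, and Cox6a2 in shSC 1. The part of these other cells in the immunoglobulin values was not tested.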

How the data were processed

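Macrophage RNA was profiled in 7 libraries, 3 shChi3l1 and 4 shSC, grouped by sample title. Per the labels' protocols, macrophages were sorted after Fc receptor block, cDNA was made from 10 ng RNA with a SMART-Seq kit and libraries with Nextera XT, a kit that keeps no strand information. The deposited values are raw counts per gene. Trim Galore, HISAT2, featureCounts and mm10 come from the submitters' processing notes. Not given in the sources used here were tool versions, the annotation and how reads that fit several segments were counted, which affects similar V genes.

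Gene IDs were matched to GENCODE mouse release 21 (55144 of 55385 ignoring version, 54487 with it). The members, gene lists and tests were chosen with earlier results of these data known. EdgeR 4.0.16 (R 4.3.3; filterByExpr minimum count 10, TMM, robust quasi-likelihood F test, hairpin as the only term) was fitted over all genes, with Benjamini-Hochberg adjustment over 15448, after a check on simulated counts. Standard errors come from the F statistic, and 0.5 was added before logarithms. The 10 library measures were compared by exact two-sided permutation over the 35 splits of 7 libraries. Intervals are 95% Wilson intervals. The named genes are Chi3l1, all C members, V members among the 3 most abundant of their locus in any library or found under 1 hairpin in all or all but 1 of its libraries, the 5 members of smallest p in each direction, and B-lineage and plasma-cell markers. Other marker lists are given mainly as sums. The plasmacytoid genes Bst2, Siglech, Tcf4, Ccr9, Klk1 and Cox6a2 were named after their values were seen. Igkv4-68, Igkv13-84, Igkv4-51, Igkv4-59, Ighv1-53 and the 4 other one-hairpin segments were named after their values were seen.

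All 21 pairs of libraries differed beyond sampling noise (smallest chi-square per gene 138.6). Same-numbered libraries, which the sample descriptions pair for a figure, correlated at 0.306, 0.26 and 0.188 in their deviations from the group means. So did 2 pairs of unlike number: the value was 0.322 for shChi3l1 3 and shSC 2, and 0.2 for the pair of shChi3l1 2 and shSC 4. The replicate block was therefore run as an alternative. Others were DESeq2 1.42.0, limma 3.58.1 voom, other scalings and filters, reads without length division, and leaving out each library. Leaving out shChi3l1 3 and shSC 3 together was added after the data had been seen.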

Additional observations from a re-analysis of the deposited data

Results flagged for a closer look

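Within the 4 shSC libraries, 34 quantities were checked for a library far from the others, by the gap to its nearest neighbour over the range of the group against Dixon's critical value at 95%, and 7 passed. Chance gives about 1 in 20 only for normally distributed values. Levels were checked in CPM and not on the log scale, where that rate need not hold. Several of the 7 describe the same reads.

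ShSC 2 had a kappa share of light-chain C reads of 83.5%, against 93.2% to 95.1% in the other shSC libraries. The same value appears as its Igkc share, and its Iglc1 share was 4.47% against 1.58% to 1.94%. The kappa share of V reads in shSC 2 was also the lowest of the group, at 92.0%.

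ShSC 3 had an Igha share of 39.0% of heavy-chain C reads, against 8.63% to 12.1%. Its levels of 3 C genes also stood apart: Igkc at 1388 CPM against 72.6 to 185.6, Igha at 372.6 CPM against 15.8 to 38.5, and Ighg2b at 66.4 CPM against 1.60 to 9.03. Jchain, at 390.1 CPM, was highest in the same library among shSC. Groups of 3 are not covered by this check, so shChi3l1 3, which held more immunoglobulin reads than the other libraries together, does not appear in it.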

How the results depend on the processing

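Of 116 alternative values for the 10 library measures, 89 kept the direction and 27 turned it. None could pass a threshold of 0.05, so their p-values decide nothing. The smallest p possible was 0.0571 for 3 libraries against 4, 0.1 for 3 against 3, 0.133 for 2 against 4 and 0.25 for 3 pairs. The total level turned only without shChi3l1 3. Leave-one-out differences (shChi3l1 minus shSC) ranged from -0.18 to 2.83 on the log2 scale for the total level. In percentage points they ranged from -13.5 to 12.6 for IgM, -12.4 to 14.7 for switched isotypes, -2.83 to 2.25 for kappa, 4.57 to 24.8 for the leading IGHV segment and -4.37 to 6.33 for the leading IGKV segment. Effective segment numbers ranged from -4.29 to -0.203 (IGHV) and -2.40 to 0.897 (IGKV), and segments at equal depth from -5.28 to 2.36 (IGHV) and -5.26 to 1.18 (IGKV). The kappa difference was -0.0932 and became 0.0258 with reads not divided by length. With the replicate block it was 1.03, the leading IGKV share moved from 0.141 to -4.37 and the IGKV effective number from -0.859 to 0.897. With a minimum of 50 counts the leading IGKV share was -0.0466 and the equal-depth numbers 0.0168 (IGHV) and 0.376 (IGKV). Without shChi3l1 3 and shSC 3 together, IgM was at 4.80, switched isotypes at -4.74 and equal-depth IGHV at 2.39. The cause of these turns was not tested. Members called numbered 0 by edgeR and voom, which called no gene at all. DESeq2 called 1 member, Igkv4-58, the only call among its 15448 tested genes. Igkv4-58 was singled out for its lack of shSC reads, so this call supports nothing either. Members found under 1 hairpin only numbered 5 to 20 when a library was left out, with 20 without shChi3l1 3, 10 without shSC 2 and 6 with all libraries. Members at an unadjusted p under 0.05 numbered 18, or 8 to 37 with a library left out, where the share over all genes was not worked out. The median over tested members was -1.17 without shChi3l1 3, 3.14 without shSC 3 and 0.66 with the replicate block. Depth limits single-segment shares, with as few as 148 IGHV reads (shSC 1) and 47 IGLV reads (shSC 4), and low input adds noise that no interval here covers.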

Other observations

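Outside the V and C members, other immunoglobulin gene entries held few reads. The 158 V pseudogenes had 5, 1 and 211 reads in shChi3l1 1, 2 and 3 and 9, 15, 120 and 3 in shSC 1 to 4. The 14 joining (J) genes had 50, 28 and 179 reads in shChi3l1 and 9, 35, 108 and 9 in shSC. The 19 diversity (D) genes had 1, 0 and 8 reads in shChi3l1 and none in shSC. All 3 classes were highest in shChi3l1 3, as the V and C members were, and V pseudogenes and J genes were second in shSC 3.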
